A study of Sus scrofa with 4 samples.

Results

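This account follows genes of the pluripotency network through the cell layers of the pig conceptus. The genes were taken by symbol from a list of 10 (POU5F1, NANOG, SOX2, DNMT3B, SALL4, LIN28A, TDGF1, DPPA5, UTF1 and L1TD1), and 4 of the 10, NANOG, DNMT3B, LIN28A and DPPA5, had a row under that symbol among the 21280 genes of the files. The other 6 genes were not analysed here. Single cells of pig embryos and of the uterine lining (endometrium) were sequenced by a droplet method that reads the 3' end of transcripts. There were 4 groups, embryo at day 12 and at day 9 of pregnancy and endometrium at day 12 and at day 9. Each group was 1 library, so differences between days lack replicates and no p-value is given. Breed, sex and the number of animals or conceptuses behind a library are not given in the sources used here. All cells came through enzymatic digestion and lysis of red blood cells.

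A set of transcription factors that includes OCT4 (the product of POU5F1), SOX2 and NANOG holds the epiblast, the cell layer that forms the fetus, in a state from which every fetal tissue can arise. RNA-binding proteins of the LIN28 family block the maturation of let-7 microRNAs in such cells, and the DNA methyltransferase DNMT3B lays down new methyl marks as the epiblast leaves its earliest, naive state. DPPA5 encodes a small protein with an RNA-binding KH domain that was found in mouse pluripotent and germ cells. The layers around the epiblast are the hypoblast, which lines the future yolk sac, and the trophectoderm, the outer layer that gives rise to the placenta. In the pig the conceptus grows from a sphere into a filament over the days studied.

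The symbol NANOG stands at 2 places in RefSeq's annotation of Sscrofa11.1, chromosome 5 from 62931642 to 62939086 and chromosome 1 from 169064134 to 169065292. How reads were shared between the copies is not known, so its level is uncertain. DNMT3B stands on chromosome 17 from 36345715 to 36386076, LIN28A on chromosome 6 from 83806178 to 83818550, and DPPA5 on chromosome 1 from 52986462 to 52987596.

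After filtering, 6671 cells of the day 12 embryo and 7000 cells of the day 9 embryo remained, with medians of 9297 and 11883.5 UMIs (molecules counted once by their barcode) per cell. The endometrium libraries held 8962 cells on day 12 and 7984 on day 9, at medians of 2233 and 2639 UMIs. Cells of the day 12 embryo held 64299480 UMIs in all and those of the day 9 embryo 82526421. The libraries shared between 54 and 105 cell barcodes in pairs, and the embryo libraries shared 65. Levels are in CPM, the summed counts of a gene in a class scaled to the same total for every class. Intervals are 95% and cover counting error only.

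Cells were clustered without the pluripotency genes and named from other markers, so that the levels of NANOG, DNMT3B, LIN28A and DPPA5 did not decide which cells were called epiblast-like. The epiblast-like cluster held 142 cells on day 12, 2.13% of the library (1.80 to 2.50%, exact binomial), and 21 cells on day 9, 0.3% (0.186 to 0.458%). With 21 cells, the day 9 epiblast-like values are descriptions of few cells. In these clusters 12 of 13 detected epiblast markers were high on day 12 and 13 of 13 on day 9. Genes with a symbol that stood among the leading genes of both clusters were BEX1, UCHL1 and IGFBP2. FGF4, SOX3 and POU3F1 of the epiblast list were at 0 in both, which allows up to 1.59 CPM on day 12 and 9.38 CPM on day 9. Trophectoderm-like cells numbered 3250 on day 12 and 653 on day 9, and hypoblast-like cells 2537 on day 12 and 5859 on day 9. A mesoderm-like cluster of 198 cells was found on day 12. On day 12 the unnamed clusters made up 8.15% of the library, and on day 9 6.67%. Different clusters held each class on the 2 days, and a cluster of 1 library may stand for that library. Cells of the day 9 embryo were called here at 2759.47 UMIs, while the day 12 embryo came with barcodes of 500 UMIs or more, which bears on every share of cells.

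The 4 genes did not mark a common layer. NANOG had most of its day 12 UMIs in epiblast-like cells, DNMT3B was highest in epiblast-like cells on both days and was present in every layer, LIN28A was low, at 6.34 CPM or less in each named class, and DPPA5 was a gene of the trophectoderm-like cells. Among the named classes NANOG and DNMT3B stood highest in epiblast-like cells on both days, and LIN28A on day 12. On day 9 the epiblast-like level of LIN28A rested on 1 UMI, so its rank is undetermined. The share of all genes that stand highest in these cells is not given here. Between the days, DPPA5 was higher on day 12 in every class with cells on both days. In epiblast-like cells this rested on 2 UMIs of day 9. The DPPA5 call there was not kept in cells of at most 1% mitochondrial UMIs or of 4000 to 8000 UMIs. The part of RNA from trophectoderm-like cells in the DPPA5 level of the other layers was not tested. DNMT3B was higher on day 12 in trophectoderm-like cells, close to equal in hypoblast-like cells and lower in epiblast-like cells, where the lower level was not found in the cells of at most 1% mitochondrial UMIs.

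**Figure D1:**
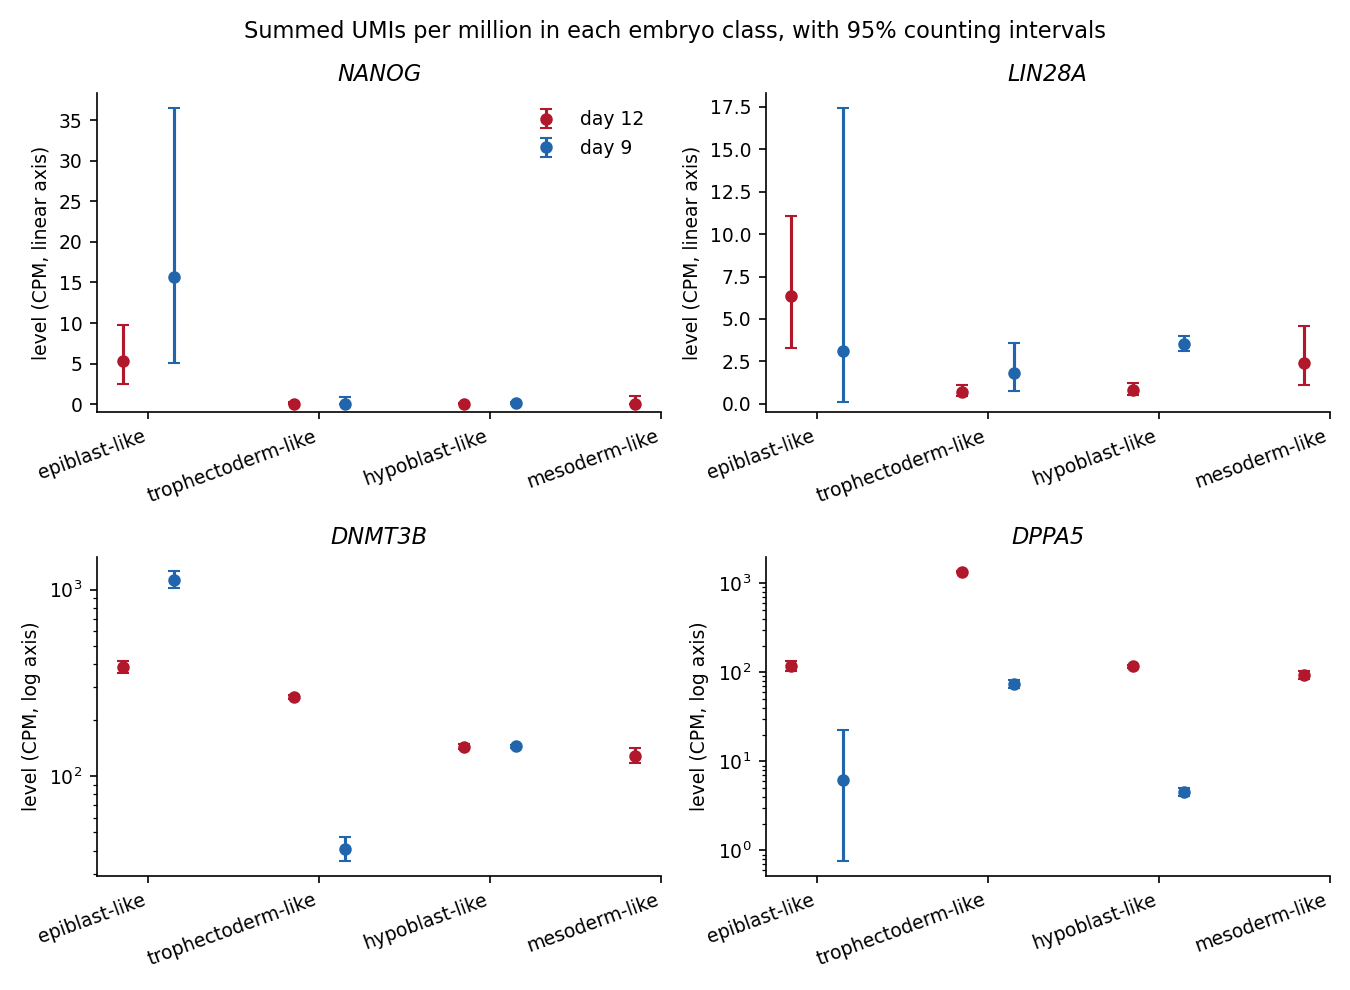
Level in CPM of each gene in epiblast-like, trophectoderm-like, hypoblast-like and (day 12 only) mesoderm-like cells, with day 12 left of day 9; bars are exact Poisson 95% intervals, the axes of NANOG and LIN28A are linear and those of DNMT3B and DPPA5 logarithmic. NANOG stands above 5 CPM in epiblast-like cells and at 0.107 CPM or less elsewhere, where the classes with 0 UMIs allow up to 0.809 CPM, while DPPA5 reaches 1344 CPM in trophectoderm-like cells of day 12.

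NANOG encodes a homeobox factor of the pluripotent epiblast. All 6671 day 12 cells held 13 NANOG UMIs, and 10 of the 13 fell in the 142 epiblast-like cells, each in a different cell. Trophectoderm-like cells held 2 of them and hypoblast-like cells 1. That gave 5.29 CPM in day 12 epiblast-like cells (2.54 to 9.72), 0.0705 CPM in trophectoderm-like cells (0.00854 to 0.255) and 0.0346 CPM in hypoblast-like cells (0.000876 to 0.193). Mesoderm-like cells held 0 of 3707564 UMIs, which allows up to 0.809 CPM. On day 12 the epiblast-like level was 110.0-fold that of all other cells (28.3 to 622).

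On day 9 the 7000 cells also held 13 NANOG UMIs, of which 5 fell in the 21 epiblast-like cells and 8 in the 5859 hypoblast-like cells. The epiblast-like level was 15.6 CPM (5.08 to 36.5) and the hypoblast-like level 0.107 CPM (0.0462 to 0.211). Trophectoderm-like cells held 0 of 4436752 UMIs, which allows up to 0.676 CPM, so the epiblast-like level was at least 23.1-fold higher, with 3 counts in place of 0. Endometrium held 2 NANOG UMIs on day 12 (0.0786 CPM) and 1 on day 9 (0.0384 CPM). The hypoblast-like levels therefore lie within the counting intervals of a tissue that should lack the gene. Between the days, epiblast-like cells had 0.338 times the level on day 12 as on day 9, with an interval of 0.105 to 1.26 that includes equal levels.

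DNMT3B was found in every named class on both days. Epiblast-like cells had 731 UMIs of it on day 12, or 386 CPM (359 to 416), and 361 UMIs on day 9, or 1129 CPM (1015 to 1251). Trophectoderm-like cells had 267 CPM on day 12 (261 to 273) and 40.8 CPM on day 9 (35.1 to 47.2). Hypoblast-like cells had 144 CPM on day 12 (140.0 to 149) and 145 CPM on day 9 (142 to 148), and mesoderm-like cells 129 CPM on day 12 (118 to 141). With all cells of each class, the order of the layers thus differed between the days. On day 12 it ran from epiblast-like over trophectoderm-like to hypoblast-like cells, with the intervals of hypoblast-like and mesoderm-like cells overlapping. Not every trophectoderm-like cluster of day 12 stood above the hypoblast-like level, as clusters 2 and 5 had 133 and 101 CPM. In day 12 cells of at most 1% mitochondrial UMIs, trophectoderm-like cells had 91.2 CPM and hypoblast-like cells 90.6 CPM, the latter on 24 DNMT3B UMIs in 35 cells. On day 9 it ran from epiblast-like over hypoblast-like to trophectoderm-like cells. Endometrium had 1.14 CPM on day 12 and 1.11 CPM on day 9. The free RNA of the day 9 embryo, read from 506868 barcodes with fewer than 100 UMIs, held DNMT3B at 119 CPM (102 to 139), above the trophectoderm-like and below the hypoblast-like level of that day. The part of free RNA in these levels was not tested.

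With all cells of each class, epiblast-like cells stood above the other layers in DNMT3B by a smaller margin on day 12. Over all other cells of the library the level was 1.96-fold on day 12 (1.82 to 2.11) and 8.25-fold on day 9 (7.41 to 9.17). Over trophectoderm-like cells it was 1.45-fold on day 12 (1.34 to 1.56) and 27.7-fold on day 9 (23.1 to 33.3). Over hypoblast-like cells it was 2.68-fold on day 12 (2.47 to 2.90) and 7.78-fold on day 9 (6.99 to 8.65). On day 12 the epiblast-like cells are a smaller cluster of 80 cells when cells need 2000 UMIs, with 535 CPM of DNMT3B, and of 100 cells when the pluripotency genes are kept for clustering, with 523 CPM. In cells of at most 1% mitochondrial UMIs, day 12 levels were 252 CPM in epiblast-like and 91.2 CPM in trophectoderm-like cells. On day 9 they were 229.6 CPM, on 14 DNMT3B UMIs in 9 cells, and 39.3 CPM. The size of the margins thus moved with the mitochondrial share. The difference between the days in the ratios was not tested, nor was the part of RNA quality in it.

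To compare shares of cells across depths, each cell was thinned to 2000 UMIs and shallower cells were left out, 17 of the 142 epiblast-like and 234 of the 3250 trophectoderm-like cells on day 12 and 0 of either class on day 9. A DNMT3B UMI was then found in 39.2% of epiblast-like cells on day 12 (30.6 to 48.3%) and 61.9% on day 9 (38.4 to 81.9%), in intervals that overlap. Trophectoderm-like cells had one in 34.8% on day 12 (33.1 to 36.5%) and 6.89% on day 9 (5.07 to 9.11%), and hypoblast-like cells in 23.4% on day 12 (21.8 to 25.1%) and 24.9% on day 9 (23.8 to 26.0%). Without thinning the day 12 shares were 72.5% in epiblast-like, 70.1% in trophectoderm-like and 72.7% in hypoblast-like cells. The day 9 shares were 95.2% in epiblast-like, 24.0% in trophectoderm-like and 77.5% in hypoblast-like cells. Thinned endometrium cells held a DNMT3B UMI in 0.210% on day 12 and 0.133% on day 9.

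LIN28A, which encodes an RNA-binding protein that blocks let-7, was counted 64 times in the day 12 embryo and 281 times in the day 9 embryo. Epiblast-like cells had 12 of these UMIs on day 12, in 10 cells, or 6.34 CPM (3.28 to 11.08), and 1 UMI on day 9, or 3.13 CPM (0.0792 to 17.4). On day 12 mesoderm-like cells followed with 9 UMIs, or 2.43 CPM (1.11 to 4.61), and hypoblast-like and trophectoderm-like cells had 0.796 and 0.705 CPM. On day 9 hypoblast-like cells had 264 of the 281 UMIs, or 3.53 CPM (3.12 to 3.98), and trophectoderm-like cells 8, or 1.80 CPM (0.778 to 3.55). Hypoblast-like cells also held 90.6% of all UMIs of the day 9 cells, beside 94.0% of the LIN28A UMIs. Both endometrium libraries had 0 UMIs of it, which allows up to 0.118 CPM on day 12 and 0.115 CPM on day 9.

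The hypoblast-like level of LIN28A on day 12 was 0.225 times that on day 9 (0.140 to 0.346), the clearest difference of this gene between the days. It lay under the minimum of 5 CPM at which a gene was compared and is given as a value only. The free RNA of the day 9 embryo held LIN28A at 2.97 CPM (0.809 to 7.60), in an interval that includes the hypoblast-like level of that day. In epiblast-like cells the ratio of day 12 over day 9 was 2.03 (0.3002 to 86.7), which leaves the direction undetermined.

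DPPA5 was highest in trophectoderm-like cells on both days. Those cells had 1344 CPM on day 12 (1331 to 1358) and 74.6 CPM on day 9 (66.8 to 83.1). On day 12 they held 38112 of the 42327 DPPA5 UMIs of the library, 90.04%, beside 44.1% of all UMIs. On day 9 they held 331 of 710, 46.6%, beside 5.38% of all UMIs. The other layers of day 12 were close to each other, at 118 CPM in epiblast-like cells (103 to 134), 116 CPM in hypoblast-like cells (113 to 120) and 94.4 CPM in mesoderm-like cells (84.8 to 105). On day 9 epiblast-like cells had 2 UMIs, 6.25 CPM (0.757 to 22.6), and hypoblast-like cells 4.52 CPM (4.05 to 5.03). Endometrium had 0.118 CPM on day 12 and 0.0384 CPM on day 9.

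**Figure D2:**
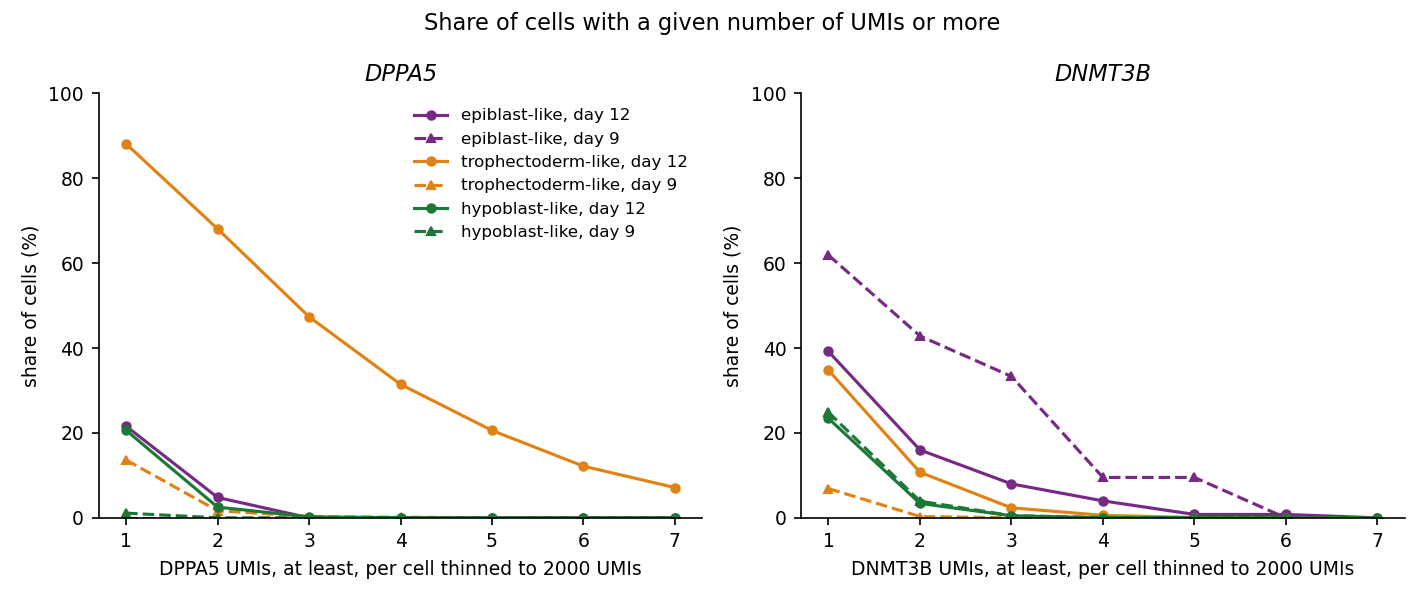
Share of cells in percent (vertical) that hold at least the given number of DPPA5 (left) or DNMT3B (right) UMIs after thinning each cell to 2000 UMIs, for epiblast-like, trophectoderm-like and hypoblast-like cells on day 12 (solid lines) and day 9 (dashed lines). For DPPA5 the day 12 trophectoderm-like cells start at 88.1% and stand above every other line, and for DNMT3B the 21 epiblast-like cells of day 9 start highest at 61.9%.

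The trophectoderm-like cells of day 12 carried DPPA5 as a class and not through a few cells. After thinning, 88.1% of them held a UMI on day 12 (86.9 to 89.3%), against 13.6% on day 9 (11.09 to 16.5%). The median cell of day 12 had 2 UMIs, the middle of the class lay between 1 and 4, and the highest cell had 37. On day 9 the median was 0 and the highest cell had 4. Epiblast-like cells held a UMI in 21.6% on day 12 (14.7 to 29.8%) and in 0 of 21 cells on day 9, which allows up to 14.3%. Hypoblast-like cells held one in 20.6% on day 12 and 1.11% on day 9, and endometrium cells in 0.0191% on day 12 and in 0 of 5993 on day 9. Without thinning the trophectoderm-like shares were 97.7% on day 12 and 33.8% on day 9.

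The low DPPA5 level in other layers was set beside the markers of the trophectoderm-like cells themselves. On day 12 the epiblast-like level was 8.77% of the trophectoderm-like level, the hypoblast-like level 8.67% and the mesoderm-like level 7.02%. For 15 trophectoderm markers the corresponding medians were 13.4% (5.58 to 104%), 8.97% (3.99 to 128%) and 16.5% (2.85 to 163%). On day 9 DPPA5 stood at 8.38% in epiblast-like cells, on 2 UMIs, and at 6.06% in hypoblast-like cells, where 13 markers had medians of 4.00% and 2.40%. The free RNA of the day 9 embryo held DPPA5 at 3.71 CPM (1.205 to 8.66), an interval that includes the hypoblast-like level. The part of RNA from trophectoderm-like cells in the DPPA5 level of other layers was not tested.

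The question between the days was how each layer changed from the younger to the older conceptus. A gene was compared at 5 CPM or more on either day and called higher or lower at 2-fold or more with a counting interval that leaves out 1. In trophectoderm-like cells NANOG and LIN28A lay under 5 CPM on both days and were not compared. The other 2, DPPA5 and DNMT3B, were called higher on day 12, beside 31.6% of 7773 genes called higher and 10.9% called lower. DPPA5 was 18.0-fold higher (16.2 to 20.1), a log2 ratio of 4.15 that lay above those of 98.6% of the genes compared. DNMT3B was 6.54-fold higher (5.65 to 7.62), a log2 ratio of 2.68, above 94.4% of them. Log2 ratios carry 1 CPM added to both levels. The median log2 ratio in this class was 0.31 over all 7773 genes and -0.29 over the genes that reached 50 CPM on each day.

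In hypoblast-like cells NANOG and LIN28A again lay under the minimum and were not compared. Of DPPA5 and DNMT3B, 1 was called higher and 0 lower, beside 13% of 8234 genes called higher and 10.8% called lower. The gene called higher was DPPA5, at 25.8-fold (23.0 to 28.9), above 99.6% of the genes compared. At 4.52 CPM on day 9, it reached the 5 CPM minimum only through day 12. Its call there adds nothing to the levels given above. DNMT3B had a ratio of 0.995 (0.960 to 1.03), beside a median log2 ratio of -0.16 over genes of 50 CPM or more. In epiblast-like cells DPPA5 was called higher, at 18.9-fold (5.16 to 157), and DNMT3B lower, at 0.342 times the day 9 level (0.301 to 0.389), beside 3.72% of 9237 genes called higher and 5.56% called lower. The DPPA5 call in epiblast-like cells rests on 2 UMIs in the 21 cells of day 9, and that in hypoblast-like cells has the limit just given. DNMT3B was called higher in trophectoderm-like cells and lower in epiblast-like cells. The lower epiblast-like DNMT3B was not found in the cells of at most 1% mitochondrial UMIs, whose values follow the sub-clusters. Whether the DNMT3B ratios of the classes differ was not tested.

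Depth and RNA quality moved with the trophectoderm-like comparison. The day 12 cells had a median of 8215.5 UMIs and 3.63% mitochondrial UMIs, the day 9 cells 5703 UMIs and 0.547%. Within cells of at most 1% mitochondrial UMIs, DNMT3B was at 91.2 CPM in 260 cells of day 12 and 39.3 CPM in 529 cells of day 9, a 2.32-fold difference (1.83 to 2.95). Within cells of more than 1%, it was at 277 CPM in 2990 cells of day 12 and 49.5 CPM in 124 cells of day 9, or 5.59-fold (3.98 to 8.13). Within cells of 4000 to 8000 UMIs it was 4.88-fold higher (3.84 to 6.28). DPPA5 was 21.5-fold (19.0 to 24.4), 21.1-fold (15.6 to 29.2) and 20.3-fold higher (17.1 to 24.1) in the same subsets. The size of the DNMT3B difference therefore moved with the mitochondrial share, and the part of RNA quality in it was not tested. Both libraries clustered together left 2581 day 12 cells, at 1168 CPM of DPPA5, without a name, and DNMT3B in the trophectoderm-like cells that kept one was at 131 CPM on day 12, against 40.7 CPM on day 9. The subsets by depth and mitochondrial share were chosen after the data had been seen.

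Among the trophectoderm-like clusters of day 12, the pair with more DNMT3B had less DPPA5. Cluster 0 (1734 cells) had 314 CPM of DNMT3B and 1200 CPM of DPPA5. Cluster 9 (81 cells), led by the interferon-induced genes ISG15 and MX1, had 325 and 1176 CPM. Cluster 2 (1158 cells), led by mitochondrial genes with a median of 3962.5 UMIs, had 133 CPM of DNMT3B and 1805 CPM of DPPA5, and cluster 5 (277 cells), with 0.277% mitochondrial UMIs, had 101 and 1643 CPM. All 4 lay above the single day 9 cluster, at 40.8 CPM of DNMT3B and 74.6 CPM of DPPA5. Without cluster 2 the day 12 class was 7.37-fold higher in DNMT3B and 16.5-fold higher in DPPA5 than on day 9.

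**Figure D3:**
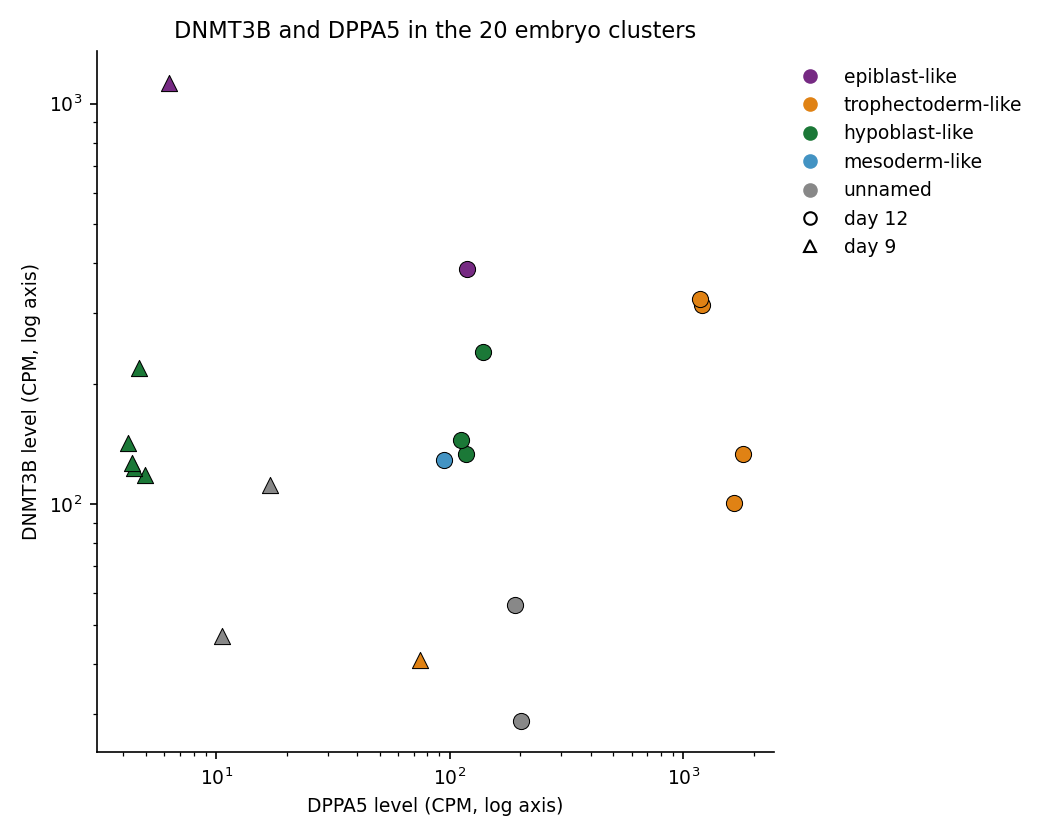
DNMT3B against DPPA5 level in CPM (both axes logarithmic) in the 20 embryo clusters, coloured by class; circles are clusters of day 12 and triangles clusters of day 9. The trophectoderm-like clusters of day 12 stand at the right, between 1176 and 1805 CPM of DPPA5, the day 9 epiblast-like cluster stands at the top with 1129 CPM of DNMT3B, and no cluster is high in both to that degree.

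The hypoblast-like clusters varied less. DNMT3B lay between 134 and 240 CPM in the 3 clusters of day 12 and between 118 and 218 CPM in the 5 clusters of day 9. The highest of day 12 was cluster 6, led by TTR and FGB, which encode plasma proteins, and the highest of day 9 was cluster 0, led by HAPLN1. DPPA5 lay between 112 and 138 CPM on day 12 and between 4.18 and 4.98 CPM on day 9, so its ranges in the 2 libraries were far apart while the clusters within a library were close. Without day 9 cluster 3, led by mitochondrial genes, DPPA5 was 25.7-fold higher and DNMT3B at 0.961 times the day 9 level (0.926 to 0.997).

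The DNMT3B level of the epiblast-like cells was not uniform. The 142 cells of day 12 were clustered again without the pluripotency genes, which gave 4 sub-clusters. Sub-cluster 1 (47 cells), led by CXCL14, CLDN10 and CDH1, which encodes E-cadherin, had 656 CPM of DNMT3B (603 to 713). Sub-cluster 0 (55 cells), led by TAC3 and TUBB3, had 254 CPM (210.2 to 304). Sub-cluster 2 (22 cells), with APOC3 and APOM among its leading genes, had 116 CPM (79.6 to 164), and sub-cluster 3 (18 cells), led by DLL3, APLNR and CHRD, 67.2 CPM (41.1 to 104). The intervals of sub-clusters 1 and 0 stand apart from each other and from the rest, and those of sub-clusters 2 and 3 overlap.

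NANOG and LIN28A had too few UMIs to rank the sub-clusters. NANOG had 3, 6, 1 and 0 UMIs in sub-clusters 0, 1, 2 and 3, and LIN28A 4, 8, 0 and 0. The 0 counts allow up to 10.1 CPM in sub-cluster 3 and 10.9 CPM in sub-cluster 2, above the levels of the other sub-clusters, so a lower level there was not detectable at this depth. DPPA5 was at 112, 126, 149 and 73.9 CPM. Sub-cluster 2 also had 306 CPM of SOX17 and 11099 CPM of APOA1, genes of the hypoblast list, against 11.7 and 1717 CPM in sub-cluster 1. Sub-cluster 3 had 417 CPM of MESP1, a gene of early mesoderm, against 19.9 CPM in sub-cluster 1. Sub-cluster 0 had 0.187% mitochondrial UMIs and sub-cluster 1 had 2.55%.

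**Figure D4:**
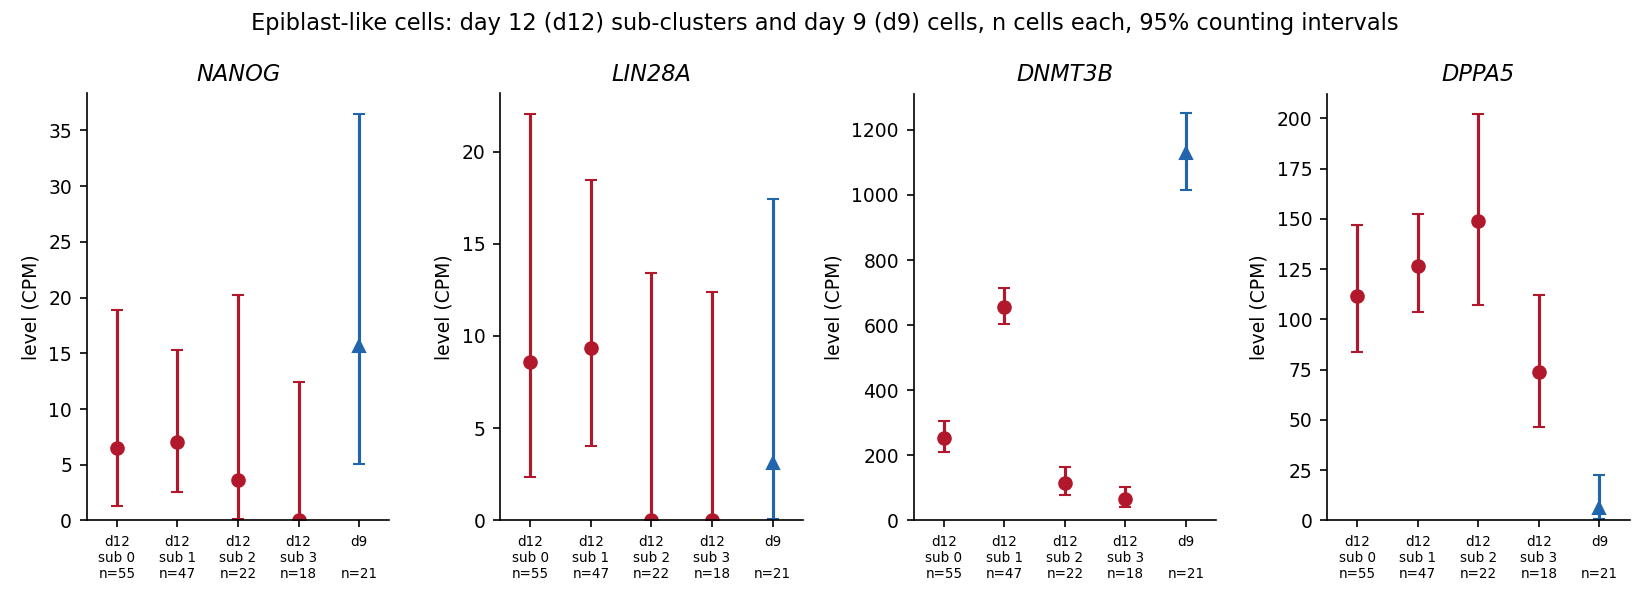
Level in CPM (linear axes from 0) of the 4 genes in the 4 sub-clusters of the day 12 epiblast-like cells (circles) and in the day 9 epiblast-like cells (triangles), with exact Poisson 95% intervals and cell numbers on the horizontal axis. DNMT3B runs between 67.2 and 656 CPM among the sub-clusters of day 12, all below the 1129 CPM of day 9, while the wide intervals of NANOG and LIN28A overlap throughout.

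Set against the day 9 epiblast-like cells, sub-cluster 1 alone had 0.582 times their DNMT3B level (0.509 to 0.666), and sub-clusters 0 and 1 together 0.456 times (0.401 to 0.520). In cells of more than 1% mitochondrial UMIs the levels were 430.1 CPM in 83 cells of day 12 and 1340 CPM in 12 cells of day 9, a ratio of 0.321 (0.281 to 0.367). The DNMT3B level was lower on day 12 in these 3 subsets, and sub-cluster 1 alone no longer reached the 2-fold of the call.

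The lower level did not extend to the rest of the class. In cells of at most 1% mitochondrial UMIs, DNMT3B stood at 252 CPM in 59 cells of day 12 (117 UMIs) and 229.6 CPM in 9 cells of day 9 (14 UMIs), a ratio of 1.10 (0.629 to 2.07). Of the 361 DNMT3B UMIs in day 9 epiblast-like cells, 347 came from the 12 cells above 1%, which held 258879 of the 319851 UMIs of the class. In cells of 4000 to 8000 UMIs the ratio was 2.02 (0.798 to 6.56), on 40 DNMT3B UMIs in 15 cells of day 12 and 5 in 4 cells of day 9. Both intervals include equal levels. The call of lower DNMT3B in epiblast-like cells therefore rests on 12 cells of day 9 with a median of 21014.5 UMIs and 3.85% mitochondrial UMIs, and the part of RNA quality and depth in it was not tested. DPPA5 had a ratio of 3.35 (0.881 to 28.4) in the cells of at most 1% and 1.77 (0.406 to 16.03) in those of 4000 to 8000 UMIs, so its call in epiblast-like cells was not kept there either. These subsets and sub-clusters too were chosen after the data had been seen.

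Joint detection of the genes was counted within single cells, and no level expected from the single genes was computed. All 10 NANOG-positive epiblast-like cells of day 12 and all 5 of day 9 also held DNMT3B, and 2 and 1 of them held LIN28A. Before thinning, 72.5% of all epiblast-like cells held DNMT3B on day 12 and 95.2% on day 9. In day 12 epiblast-like cells 83 of 142 (58.5%) held both DNMT3B and DPPA5 before thinning, in trophectoderm-like cells 2247 of 3250 (69.1%), and in hypoblast-like cells 1312 of 2537 (51.7%). On day 9 these were 2 of 21, 60 of 653 (9.19%) and 262 of 5859 (4.47%). After thinning the pair was found in 7.2% of epiblast-like and 30.3% of trophectoderm-like cells on day 12, and in 0 of 21 and 0.459% on day 9. These shares rise with depth and with the level of each gene.

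Epiblast-like cells were next set against all other cells of the same library over the whole table. On day 12 NANOG and LIN28A were called higher, DPPA5 lower and DNMT3B, at 1.96-fold, neither, beside 22.5% of 9077 genes called higher and 14.3% called lower. In each comparison of epiblast-like with other cells, NANOG on both days and LIN28A on day 12 reached the 5 CPM minimum only through the epiblast-like cells, so their calls add nothing to the levels given above. DPPA5 was at 0.175 times the level of the other cells (0.153 to 0.199). On day 9 NANOG and DNMT3B were called higher, beside 17.2% of 8918 genes called higher and 7.46% called lower. Against trophectoderm-like cells of day 12, NANOG and LIN28A were called higher and DPPA5 lower in epiblast-like cells, beside 28.1% of 9014 genes called higher and 13.2% called lower. Against hypoblast-like cells of day 12, NANOG, DNMT3B and LIN28A were called higher, beside 26.1% of 9076 genes called higher and 14.8% called lower, and DPPA5 was at 1.01 times the hypoblast-like level (0.880 to 1.16). On day 9 NANOG and DNMT3B were called higher and DPPA5, on 2 UMIs, lower than in trophectoderm-like cells, where 33% of 8643 genes were called higher and 6.87% lower. Against the hypoblast-like cells of day 9 NANOG and DNMT3B were called higher, beside 17.3% of 8930 genes called higher and 7.7% called lower.

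Trophectoderm-like cells set against all other cells gave the converse view of DPPA5. It was 11.5-fold higher on day 12 (11.104 to 11.8) and was called higher, beside 10.5% of 8451 genes called higher and 17.3% called lower. NANOG and LIN28A lay under the 5 CPM minimum on each day and were not compared. On day 9 DPPA5 was 15.4-fold higher (13.2 to 17.9) and DNMT3B was called lower, at 0.279 times the level of the other cells (0.239 to 0.323), beside 9.17% of 7872 genes called higher and 37.6% called lower. At 4.85 CPM in the other cells of day 9, DPPA5 reached the minimum only through the trophectoderm-like cells. That call adds nothing to the levels given above. DNMT3B in day 12 trophectoderm-like cells was 1.76-fold that of the other cells (1.70 to 1.82) and was not called. In mesoderm-like cells of day 12 DPPA5 was called lower than in the other cells, at 0.136 times (0.122 to 0.151), beside 14.6% of 8713 genes called higher and 17.4% called lower.

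Genes that work with the pluripotency factors were described from 8 lists, 90 of whose 95 genes had a row. In comparisons between classes, markers of the epiblast, hypoblast, trophectoderm and mesoderm lists were left out of the counts. The rest could still be among the variable genes that cells were clustered on. A gene under 5 CPM in the other cells was compared only through its epiblast-like level, which favours a call of higher. This held for ETV1, SPRY4, GDF1, LIN28B and DND1 below, and the shares over all genes carry the same limit. In day 12 epiblast-like cells over all other cells, the median log2 ratio of all genes compared was 0.22, with 22.5% called higher and 14.3% lower. Of 6 compared genes tied to the naive state, 0 were called higher and 5 lower, with a median of -1.90. With the gene that served to name a class kept, 1 of 7 was called higher and 5 lower, with a median of -1.78. KLF4 and KLF5, factors of the naive network in mouse, stood at 16.9 and 31.7 CPM in epiblast-like cells, against 71.4 and 111 CPM in the other cells. TBX3 stood at 37.0 CPM, against 41.9 CPM, and was not called.

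Of 9 compared genes tied to the formative or primed state, which follows the naive one, 6 were called higher and 0 lower, with a median of 1.35. ETV1, an ETS factor downstream of FGF signals, stood at 43.3 CPM in epiblast-like cells and 0.256 CPM in other cells. DUSP6, a phosphatase of the ERK pathway, stood at 90.9 CPM against 75.5 CPM, and the cadherin gene CDH2 at 61.3 CPM against 90.8 CPM. On day 9, 4 of 8 genes of this list were called higher and 1, CDH2, lower, and of the 6 naive genes compared 0 were called higher and 4 lower, beside 17.2% of all 8918 genes called higher and 7.46% called lower.

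Of the FGF signalling list, 4 of 6 genes were called higher and 0 lower on day 12, with a median of 1.59. The receptor gene FGFR1 stood at 61.3 CPM in epiblast-like cells and 7.11 CPM in other cells, and the feedback inhibitor gene SPRY4 at 20.1 and 0.593 CPM. The receptor genes FGFR2 and FGFR3 were at 11.6 and 38.6 CPM in epiblast-like cells, against 21.3 and 68.5 CPM in the others, and were not called. Of the NODAL and TDGF1 signalling list 2 of 8 were called higher and 2 lower, with a median of -0.23. GDF1, a TGF-beta family ligand, was at 24.8 CPM against 0.833 CPM, while FURIN, a protease that activates such ligands, was lower at 59.2 CPM against 153 CPM, and the signal transducer gene SMAD2 was at 31.2 CPM against 35.9 CPM.

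LIN28B, the paralog of LIN28A, was the more abundant of the pair by UMIs in epiblast-like cells. It had 76 UMIs on day 12 and 17 on day 9, against 12 and 1 of LIN28A, although 3' counts of different genes are not a strict measure of their relative levels. LIN28B stood at 40.2 CPM in day 12 epiblast-like cells and 3.67 CPM in other cells, 10.9-fold (8.33 to 14.3), and at 53.1 and 1.59 CPM on day 9. Of the 8 compared genes of its list, 2 were called higher and 1 lower on day 12, with a median of 0.16. The second called higher was IGF2BP2, which encodes an RNA-binding protein and is a target of let-7, at 42.8 CPM against 6.23 CPM. DICER1, which cuts microRNA precursors, was at 24.3 CPM against 22.0 CPM.

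DNMT3B has a set of partner genes in DNA methylation, and 4 of 8 compared were called higher and 1 lower in day 12 epiblast-like cells, with a median of 1.04. HELLS, a chromatin remodeller needed for DNA methylation, stood at 129.5 CPM against 28.6 CPM, and UHRF1, which guides the maintenance methyltransferase DNMT1, at 46.0 CPM against 9.73 CPM. TET1, which oxidises methyl marks, stood at 23.3 CPM against 25.1 CPM, and the repair glycosylase gene TDG at 48.6 CPM against 29.0 CPM. Between the days, epiblast-like cells had lower HELLS on day 12, at 0.298 times the day 9 level (0.241 to 0.370), lower DNMT3A, the other de novo methyltransferase, at 0.420 times (0.284 to 0.634), and lower TET1, at 0.438 times (0.245 to 0.817). UHRF1 was 2.94-fold higher (1.21 to 9.29), and DNMT1 had 0.783 times the level (0.567 to 1.10). Of these 8 partner genes 1 was called higher and 3 lower on day 12, beside 3.72% of 9237 genes called higher and 5.56% called lower. These ratios rest on the same 21 cells of day 9.

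Of 11 compared partners of OCT4, SOX2 and SALL4, 2 were called higher and 1 lower in day 12 epiblast-like cells, with a median of 0.50. The histone deacetylase gene HDAC2 was higher, at 416 CPM against 133 CPM in the other cells, and STAT3 lower, at 9.52 CPM against 37.2 CPM. All 3 compared genes of the germ cell list were called higher, with DND1, an RNA-binding protein gene, at 27.0 CPM against 1.28 CPM. These 3 were also on a germ cell marker list of the naming rule, from which no cluster was named, and were kept in the count. DND1 was compared only through its epiblast-like level.

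The counts between days keep all listed genes. A gene under 5 CPM on day 9 was compared only through day 12, which favours a call of higher. Among the genes named below this held for TET1, KLF4, FGFR2 and NR5A2, while DPPA2 was compared only through day 9. In trophectoderm-like cells the DNA methylation list had 5 of 8 genes called higher on day 12 and 0 lower, with a median log2 ratio of 0.96 beside 0.31 for all 7773 genes compared, of which 31.6% were called higher and 10.9% lower. TET1, with 26.1 CPM on day 12 and 4.51 CPM on day 9, was higher by 5.80-fold (3.73 to 9.55), while DNMT1 was at 41.9 and 32.5 CPM, HELLS at 35.8 and 34.9 CPM, and TDG at 29.2 and 46.4 CPM. In hypoblast-like cells 0 of 7 were called higher and 1 lower, with a median of -0.61 beside -0.16 for all 8234 genes, of which 13% were called higher and 10.8% lower. The gene called lower was HELLS, at 18.4 CPM on day 12, against 48.4 CPM on day 9.

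The counts of the other lists in trophectoderm-like cells stand beside the same 31.6% called higher and 10.9% called lower. KLF4 was 18.7-fold higher (11.5 to 32.7), with levels of 67.4 CPM on day 12 and 3.61 CPM on day 9. DPPA2, a chromatin factor of pluripotent cells that shares part of its name with DPPA5 but not its family, was lower, at 4.69 CPM on day 12, against 60.9 CPM on day 9. The naive list had 3 of 7 genes called higher and 1 lower. All 4 compared genes of the NODAL and TDGF1 list were called higher, among them FURIN at 140.4 and 48.5 CPM, and 4 of 7 of the LIN28 and let-7 list, among them MYCN at 80.8 and 14.0 CPM. FGFR2 had 36.2 CPM on day 12, against 0.225 CPM, 1 UMI, on day 9. Of the partners of OCT4, SOX2 and SALL4, 5 of 10 were called higher, with the polycomb cofactor gene JARID2 at 124 and 21.6 CPM and the histone deacetylase gene HDAC1 at 34.4 and 55.2 CPM.

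In hypoblast-like cells the genes of these lists stand beside the same 13% called higher and 10.8% called lower. STAT3, which carries LIF signals in mouse embryonic stem cells, had 70.9 CPM on day 12, against 7.03 CPM on day 9, a 10.1-fold difference (9.16 to 11.12). NR5A2, a nuclear receptor, stood at 34.5 CPM on day 12, against 0.548 CPM on day 9. SALL1 and DUSP6 were also called higher, at 48.6 against 13.9 CPM and 109 against 45.3 CPM. IGF2BP1 was lower, at 12.5 CPM on day 12, against 32.1 CPM on day 9.

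**Figure D5:**
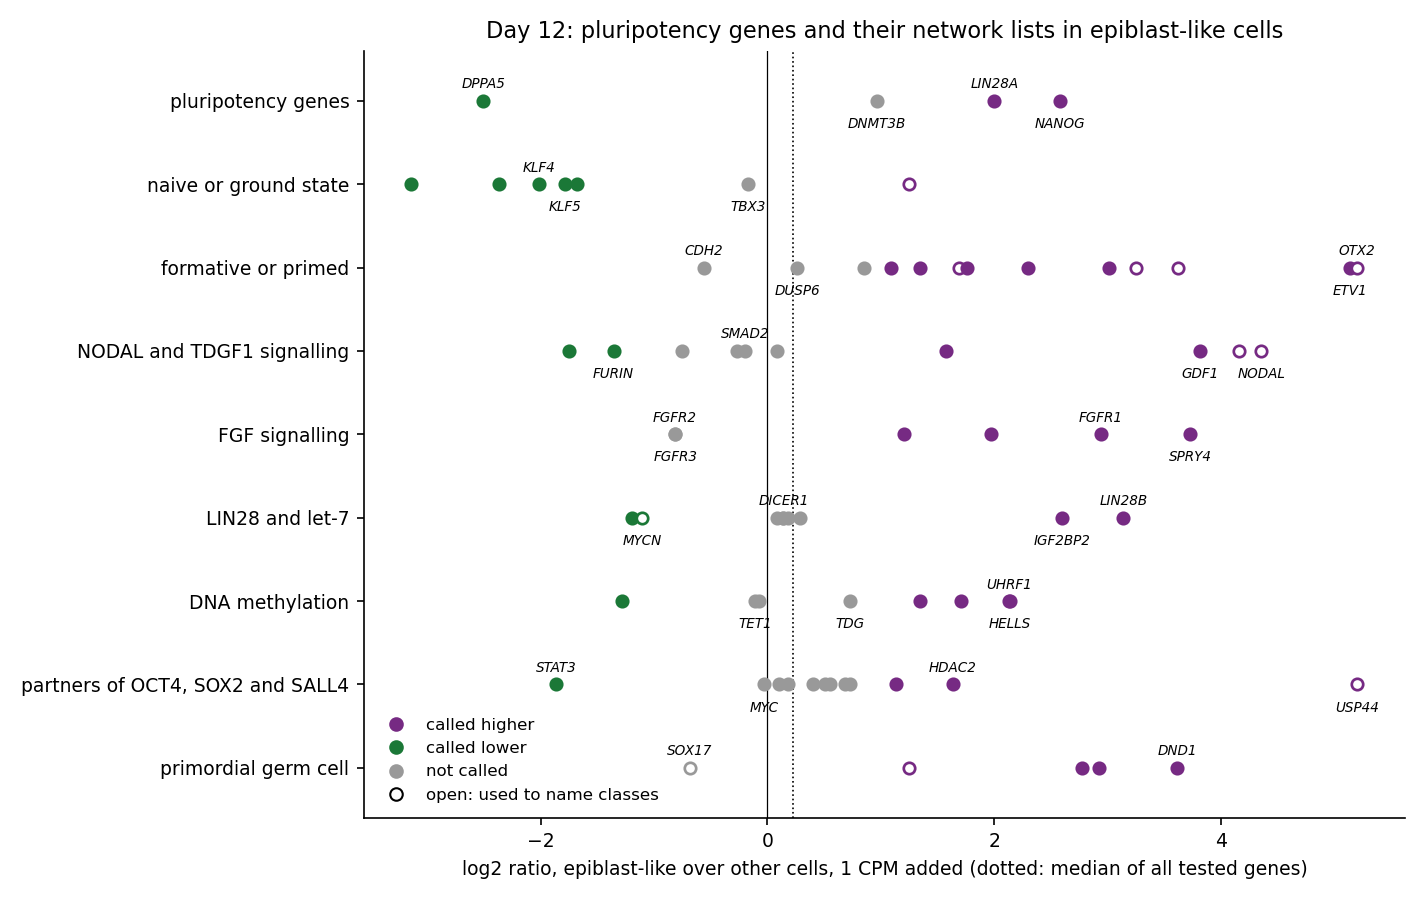
Log2 ratio of day 12 epiblast-like cells over all other cells of the library (horizontal, 1 CPM added) for the pluripotency genes and 8 network lists. Each list has 1 row and each gene compared 1 point. Purple is called higher, green lower and grey neither. Open points are genes used to name the classes, from the epiblast, hypoblast, trophectoderm and mesoderm lists. The dotted line is the median of all genes compared, 0.22. DPPA5 stands at the left, as do the naive genes called lower, and NANOG and LIN28A stand at the right.

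The genes whose pattern over the 20 embryo clusters was most like that of DPPA5, by Pearson correlation of log2 levels over 6716 genes, were PLBD1 (r = 0.99), CTSL (r = 0.99), which encodes the lysosomal protease cathepsin L, and IFNG (r = 0.98), which encodes interferon gamma, a secreted product of the pig trophectoderm. Of CTSL, trophectoderm-like cells had 4623 CPM on day 12 and 198 CPM on day 9. Hypoblast-like cells had 294 CPM of CTSL on day 12 and 3.68 CPM on day 9, and 51.4 and 0.0668 CPM of IFNG. The part of RNA from trophectoderm-like cells in these levels was not tested. The genes most like DNMT3B were USP28 (r = 0.93), which encodes a deubiquitinase, FAM53C (r = 0.92) and TRIM33 (r = 0.90). USP28 stood in epiblast-like cells at 21.7 CPM on day 12, against 50.02 CPM on day 9. The clusters of a library share its depth and free RNA, so these values are descriptions. NANOG and LIN28A were under 20 CPM in every cluster and were not compared.

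Some neighbours of the genes in the genome had values. OOEP, a gene of the same KH domain family that is known from the oocyte and lies 19.3 kb away, was at 0.282 CPM in trophectoderm-like cells on day 12 and 0 on day 9, and KCNQ5, 46.8 kb away, was at 0 in both. KHDC3L, 9.11 kb from DPPA5 and its nearest neighbour, was not analysed here. The nearest neighbour of DNMT3B, MAPRE1 at 4.62 kb, was at 103 CPM in epiblast-like and 129.7 CPM in trophectoderm-like cells of day 12, and at 90.7 and 181 CPM on day 9.

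Markers of other cell types were read in the epiblast-like cells. Of 23 trophectoderm markers with a row, 3 were at 0 on day 12 (ASCL2, ELF5 and VGLL1) and 7 on day 9, HAND1, TFAP2A and PLET1 among them, and their summed level was 8567 CPM on day 12 and 5165 CPM on day 9, against 23815 and 61961 CPM in trophectoderm-like cells. Of 20 hypoblast markers, 3 were at 0 on day 12 and 5 on day 9, with sums of 6501 and 6147 CPM. Of 6 immune markers 5 were at 0 on each day, and the uterine stroma list summed to 4.23 CPM on day 12 and 0 on day 9. The part of RNA from other layers in the epiblast-like levels was not tested.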

How the data were processed

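Per the labels' protocols, 2 embryo and 2 endometrium libraries were made with the 10x Genomics 3' chemistry. The authors deposited UMI counts per gene and barcode. Cell Ranger 6.1.2 and the build Sscrofa11.1 are given per the submitters' processing notes, and the header of the day 9 embryo file names version 4 of the software. The day 9 embryo file held 657829 barcodes. Its cells were called here at 0.1 times the 99th percentile of the 3000 highest totals, 2759.47 UMIs. Kept cells had 1000 or more UMIs and 500 or more genes, with no more than 20% of UMIs mitochondrial. Doublets were marked by Scrublet in scanpy 1.11.5 and removed, 93 in the day 12 embryo and 1 in the day 9 embryo. The caller marked none in the endometrium, so doublets may remain in these last 3 libraries.

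Each embryo library was clustered alone by the Leiden method (2000 variable genes, 30 components, 15 neighbours, resolution 0.6), without the pluripotency genes. A marker was high where it reached 0.5 of the level in its top cluster. Naming took 3 high markers that were also 0.5 or more of the detected ones. This naming rule was set after the data had been seen. The genes and lists were chosen with earlier results of these data known. Of 131 listed markers 120 had a row. Symbols came from the files for 14811 genes and from RefSeq's gene table for 688.

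The counts were summed per library and class and scaled here to CPM. There is 1 library per group, so there are no p-values. Intervals are exact Poisson (levels), binomial (shares) and conditional binomial (ratios), and a count of 0 is given the limit of 3 counts. The ratio intervals were run on simulated counts with counting error only, which does not cover variation between cells or libraries. Named network genes were, for each list, those with the highest and lowest 2 ratios at 20 CPM or more, and a few others were named after their values were seen. Joint detection was described for the 4 genes with a row and not for POU5F1 and SOX2.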

Additional observations from a re-analysis of the deposited data

Results flagged for a closer look

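DNMT3B was called in opposite directions between the days in different layers. In trophectoderm-like cells the log2 ratio of day 12 over day 9 was 2.68, from 267 CPM on day 12 and 40.8 CPM on day 9. In epiblast-like cells it was -1.54, from 386 CPM in 142 cells on day 12 and 1129 CPM in 21 cells on day 9. Within cells of at most 1% mitochondrial UMIs the epiblast-like log2 ratio was 0.13, on 117 DNMT3B UMIs of day 12 and 14 of day 9, so the opposite direction was not found there. With 1 library per day the difference between the layers was not tested.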

How the results depend on the processing

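No paired analysis was possible because each group held 1 library, which also means that no library could be left out. Every log2 ratio of DNMT3B and DPPA5 in trophectoderm-like cells kept its direction under the alternatives that gave a value. That of DNMT3B in epiblast-like cells reversed, to 0.13 in cells of at most 1% mitochondrial UMIs and 1.01 in cells of 4000 to 8000 UMIs, with intervals that include equal levels, and kept its direction under the others. In trophectoderm-like cells (2.68 for DNMT3B, 4.15 for DPPA5) the ratios were 2.21 and 4.38 with day 9 barcodes of 1000 UMIs or more, 2.24 and 4.40 at Leiden resolution 0.3, 1.66 and 4.58 with both libraries clustered together, and 2.97 and 4.44 when scaled by the median of ratios. In subsets chosen after seeing the data they were 2.26 and 4.32 in cells of 4000 to 8000 UMIs, 1.196 and 4.41 at no more than 1% mitochondrial UMIs, and 2.46 and 4.37 above 1%. In epiblast-like cells the DNMT3B ratio of -1.54 became -1.08 with cells of 2000 UMIs or more, -1.11 with the pluripotency genes kept for clustering, -1.13 in sub-clusters 0 and 1, and -0.78 in sub-cluster 1. The cause was not tested.

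Epiblast-like over other cells on day 12, the DNMT3B log2 ratio of 0.97 became 1.44 and 1.41 under the first 2 of these, past 2-fold. LIN28A in trophectoderm-like cells, below 5 CPM, ranged between -1.66 and 0.67. With no minimum level LIN28A was also called lower in hypoblast-like cells. At resolution 0.3 no day 12 cluster, and with joint clustering no cluster, was named epiblast-like, so these gave no value. The mesoderm-like class of resolution 0.3 then held 340 day 12 cells, with NANOG at 1.79 CPM and DNMT3B at 216 CPM. With joint clustering it held 347 cells of day 12 and 24 of day 9, with NANOG at 1.82 and 14.9 CPM and DNMT3B at 218 and 1078 CPM. Whether cells were named epiblast-like thus depended on the setting. Scaling by the median of ratios moved the share of called genes that were higher on day 12 to 86.2% against 74.4% in trophectoderm-like cells (a shift of -0.29), 68.0% against 54.7% in hypoblast-like cells (-0.16) and 49.1% against 40.1% in epiblast-like cells (-0.08). Depth limits NANOG, with 13 UMIs in each embryo library, and LIN28A, and the day 9 epiblast-like values rest on 21 cells.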
